A study of Homo sapiens with 3 samples.

Results

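OR51E1 and OR51E2 are the olfactory receptor genes best known from the prostate, where they were first described as PSGR2 and PSGR. They were followed through a knockdown experiment in LNCaP cells, an androgen-responsive human prostate carcinoma line. Each gene was read by 1 Affymetrix probe set whose annotation names that gene alone, and the pair are 2 of the 18417 genes that the deposited table measured. The pair was chosen because OR51E1 stood among the largest upward differences of this experiment, with OR51E2 as its prostate relative and chromosomal neighbour. The levels and differences of both genes are therefore given as a description, without a test.

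The series holds 3 arrays of LNCaP cells harvested 72 hours after lipid transfection. The control array (n = 1) carries a negative control siRNA, and the siRNA arrays (n = 2) carry siSE1 and siSE2, which are directed against SLC45A3-ELK4, a chimeric transcript of neighbouring genes that joins a prostate transporter gene to an ETS-family transcription factor gene. All arrays share the cell line, the medium with serum and the transfection reagent. On the array titled siSE2 the transfection label names siSE1, and the title was followed. Beyond the siRNA names, nothing in the labels ties the arrays to separate cultures. The spread between siRNA arrays, and any p-value resting on it, may be technical. By the titles these arrays carry different siRNAs, which the test below pools. That spread may thus also hold differences between siSE1 and siSE2. In the order control, siSE1, siSE2, the parent genes read 9.66, 9.14 and 9.27 (SLC45A3) and 8.50, 8.45 and 8.20 (ELK4) in log2. Their probe sets report the parent genes and not the junction, and leave the knockdown unchecked. The prostate identity of the cells was checked on 10 measured luminal markers, all of which passed the filter on low signal described below. KLK3, which encodes prostate-specific antigen, read 10.04, 9.59 and 9.71, and HOXB13, a prostate homeobox factor, read 9.51, 9.53 and 9.74 on the control, siSE1 and siSE2 arrays.

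Olfactory receptors are G-protein-coupled receptors that in nasal sensory neurons act through the G protein subunit encoded by GNAL, adenylyl cyclase ADCY3 and a cyclic nucleotide-gated channel. OR51E1 and OR51E2 belong to the class I receptors, the branch that takes hydrophilic ligands such as short fatty acids. OR51E2 is known to respond to acetate, propionate and beta-ionone and OR51E1 to medium-chain and branched fatty acids. Both are expressed in prostate epithelium, and their RNA is raised in many prostate carcinomas.

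The OR51E1 start region is shown because OR51E1 carries the larger change and because the siRNAs target a transcript that includes ELK4 sequence. It is the window from 250 bases before to 50 bases after the annotated start, from RefSeq on GRCh38.p14, chr11:4643732-4644031, plus strand. Of the pair, 1 matched the table of start regions. The capitals mark the only match in the window to CGGAAG, a longer form of the GGAA core bound by ETS factors. GGAA without the leading C also occurs elsewhere in the window, in lower case.

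OR51E1: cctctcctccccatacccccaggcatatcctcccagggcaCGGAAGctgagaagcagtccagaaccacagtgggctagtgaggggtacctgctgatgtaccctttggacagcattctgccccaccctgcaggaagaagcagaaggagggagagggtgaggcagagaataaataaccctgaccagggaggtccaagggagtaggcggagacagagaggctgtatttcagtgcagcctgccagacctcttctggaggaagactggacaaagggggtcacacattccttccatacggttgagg

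The CGGAAG match begins 210 bases before the annotated start, on the plus strand. Searched on both strands, these letters occur in 19.5% of the 35116 start regions of the same length, and in 8 of the 328 start regions of other olfactory receptor genes (2.44%). The match is a description of the letters and was made after the sequence had been read. The window has no match to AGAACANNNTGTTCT, the full androgen response element (1 of 35116 start regions), to AGAACA, its half-site, which the full element contains (14.8%), or to TGACGTCA, the cAMP response element (1.85%). Among the 328 start regions of other olfactory receptor genes, 82 hold the half-site (25.0%). The full element and the cAMP response element each occur in 0 of them. The window is 57.0% G and C, against a median of 37.7% in the start regions of other olfactory receptor genes and 58.7% over all start regions. It holds 3 CG dinucleotides, against a median of 1 in the other olfactory receptor start regions and 14 over all start regions.

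OR51E1 was higher on both siRNA arrays than on the control array. Its log2 value was 5.16 on the control array, against 6.50 for siSE1 and 6.85 for siSE2. The siRNA arrays averaged 6.68 ± 0.24 (SD, n = 2), and the control value lay below both of them by at least 1.35. The differences from the control array were 1.35 with siSE1 (2.55-fold) and 1.69 with siSE2 (3.23-fold), with a mean of 1.52 (2.87-fold). The gap between the siRNA arrays was 0.34. Among all 18417 genes, OR51E1 ranked 5th by its difference with siSE1 and 3rd by its difference with siSE2.

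OR51E2 was also higher on both siRNA arrays, by less and with less agreement between them. Its log2 value was 3.76 on the control array, against 4.66 for siSE1 and 4.16 for siSE2. The siRNA arrays averaged 4.41 ± 0.36 (SD, n = 2). The difference from the control array was 0.90 with siSE1 (1.87-fold) and 0.40 with siSE2 (1.32-fold), with a mean of 0.65 (1.57-fold). The siSE2 array lay closer to the control array than to the siSE1 array, since the siRNA arrays differed by 0.50. That gap was wider than the gap of 97.4% of all genes, while the OR51E1 gap was wider than that of 90.8%. The array with the higher value was siSE2 for OR51E1 and siSE1 for OR51E2.

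**Figure D1:**
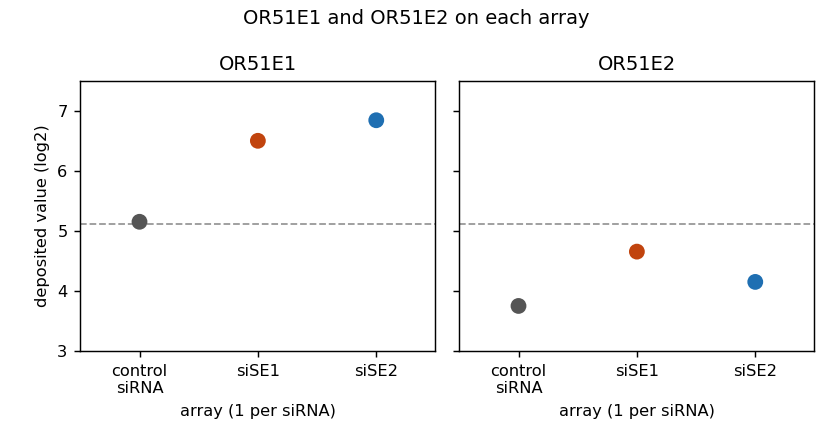
Deposited log2 value (vertical axis) of OR51E1 (left) and OR51E2 (right) on the control, siSE1 and siSE2 arrays (horizontal axis), 1 point per array, with no error bars because each siRNA has 1 array. The dashed line is the filter level of 5.12 on a gene's mean. OR51E1 goes from 5.16 on the control array to 6.50 and 6.85, and OR51E2 from 3.76 to 4.66 and 4.16, below the line on every array.

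The genes differed in how much signal stood behind them. A gene counted as low in signal, and stayed out of the statistical test, when its 3-array mean fell under the 30th percentile, log2 5.12. OR51E1 passed with a mean of 6.17, and its control value alone lay just above that level. OR51E2 did not pass, with a mean of 4.19, and had no array above the level. In 1223 genes whose mean lay within 0.25 of that of OR51E2, the difference with siSE1 was at least as large as that of OR51E2 in 2 (0.164%), OR51E2 itself included. The difference with siSE2 was at least as large in 91 of them (7.44%). These counts describe where OR51E2 lies and are no test of it. The median difference of these genes was 0.10 with siSE1 and 0.07 with siSE2. Over all 5525 genes below the filter it was 0.08 and 0.05, and with cyclic loess 0.0006 and -0.0017, while OR51E2 then stood at 0.82 and 0.34. The share of expressing cells and the RNA per cell cannot be told apart in such bulk samples.

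A change of at least 1.5-fold upward with both siRNAs was met by OR51E1 and not by OR51E2, which met it with siSE1. Over all 18417 genes, 98 met it with both siRNAs (0.532%), 300 with siSE1 (1.63%) and 223 with siSE2 (1.21%). The siRNA differences share the same control array. Because the pair was chosen on this contrast, nothing is read from these counts.

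The table measured 359 other olfactory receptor genes, of which 327 were below the signal filter. With siSE1 their differences ran from -0.89 to 0.90, with a median of 0.05, and with siSE2 from -0.77 to 0.89, with a median of 0.04. OR51E1 lay above all of them on both arrays. OR51E2 lay above all of them with siSE1, next after OR51E1, and ranked 32nd of the 361 olfactory receptor genes with siSE2. Of the 359, OR4M2 alone met the 1.5-fold rule upward with both siRNAs (0.279%, against 0.532% of all genes), and 0 met it downward. OR4M2 read 3.64, 4.53 and 4.28 on the control, siSE1 and siSE2 arrays. Like OR51E2, it was below the filter on its mean. Ranked by the smaller of the differences with siSE1 and siSE2, the next were OR4C13 with differences of 0.52 and 0.63 and OR51F2 with 0.52 and 0.52. In the same ranking, the lowest were OR2AE1 (-0.45 and -0.57), OR2B6 (-0.80 and -0.43) and OR9A2 (-0.38 and -0.40).

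**Figure D2:**
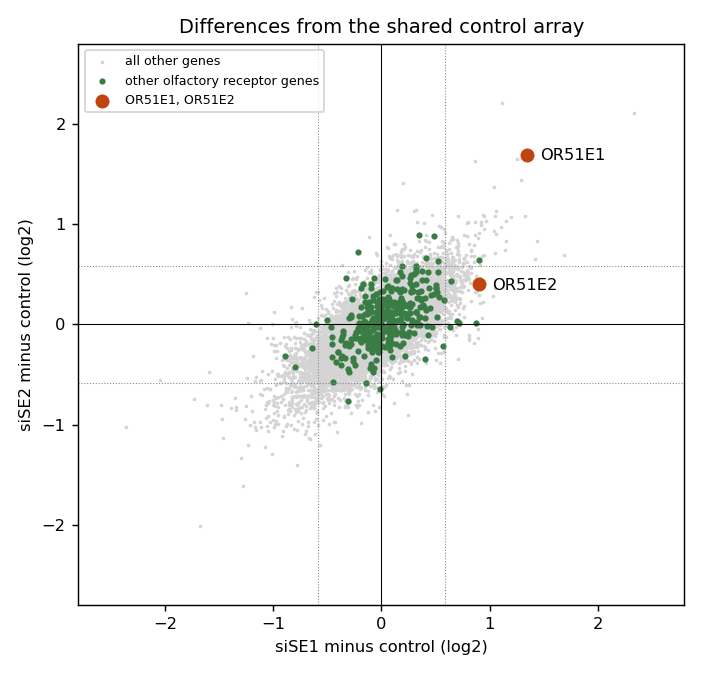
Difference from the control array with siSE1 (horizontal axis, log2) and with siSE2 (vertical axis, log2) for all 18417 genes, 1 point per gene, with other olfactory receptor genes in green and OR51E1 and OR51E2 in orange. Dotted lines mark 1.5-fold, and the axes share 1 control array, which by itself aligns the points. OR51E1, at 1.35 and 1.69, lies apart from the 359 other olfactory receptor genes, and OR51E2, at 0.90 and 0.40, lies at their edge.

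The signal filter left 32 other olfactory receptor genes for the test across all genes (limma, siRNA arrays against the control array). Of these, 0 rose and 0 fell after Benjamini-Hochberg adjustment (limma, lowest adjusted p = 0.107, for OR51F2). At an unadjusted p under 0.05, 5 were higher and 2 lower. Of the 5, OR10P1, OR13F1 and OR52M1 lay under the filter level on the control array (4.97, 4.92 and 5.04). They passed the filter through their siRNA arrays, so the count of higher genes is partly set by the filter. Over the 12892 genes tested, limma called 32 higher (0.248%) and 92 lower (0.714%), together 0.962%, and 17.8% had an unadjusted p under 0.05. Both counts of the 32 are near these shares. Each gene's own spread in this fit rests on 1 residual degree of freedom, from the siRNA arrays alone, and the control array is taken to vary likewise. The fit draws that spread toward a value shared by all genes tested. A standard error (SE) given here is thus not the gene's own spread alone. OR51F2, with differences of 0.52 and 0.52, had an SE of 0.14. The median of the other olfactory receptor genes changes sign with the scaling: their mean difference had a median of 0.05 as deposited, and of -0.0029 with quantile normalization and -0.01 with cyclic loess. Within class I, the branch of OR51E1 and OR51E2, 53 other genes were measured and 0 met the 1.5-fold rule with either siRNA in the upward direction. Their differences reached 0.52 with siSE1 and 0.58 with siSE2. Probe sets that name several olfactory receptor genes together were kept out of these counts. There were 49 of them, of which 0 met the 1.5-fold rule with both siRNAs.

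OR51E1 and OR51E2 lie close together in a class I receptor cluster on chromosome 11, with 2 annotated genes between them, OR51A9P and LOC105376528, that are not analysed here. The annotated span of OR51C1 overlaps that of OR51E2, and whether its RNA adds to the OR51E2 signal was not tested. The 10 nearest measured genes on each side were set beside the pair. On the OR51E1 side, OR51D1, the next gene in order, read 3.64, 3.88 and 3.71 on the control, siSE1 and siSE2 arrays. TRIM68, a ubiquitin ligase gene, followed with 7.67, 8.06 and 8.15. On the OR51E2 side, MMP26, a matrix metalloproteinase gene, read 3.55, 3.61 and 3.60. With siSE1 none of these 3 differed from the control array by as much as OR51E1 or OR51E2, while with siSE2 TRIM68 differed by 0.48 and OR51E2 by 0.40.

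Most of the neighbours read above the control array with both siRNAs. Of the 20, 14 were higher and 3 lower on both siRNA arrays, against 39.9% of all genes and 47.9% of genes below the filter that were higher on both. Their median difference was 0.24 with siSE1 and 0.21 with siSE2, and 0 of the 20 met the 1.5-fold rule with either siRNA in the upward direction. Of the 5 that passed the filter, 0 were called (limma), while 4 had an unadjusted p under 0.05, against 0.962% and 17.8% of all genes tested. TRIM68 differed by 0.43 ± 0.14 (SE; limma, adjusted p = 0.165), OR51F2 by 0.52 ± 0.14 (adjusted p = 0.107), TRIM21 by 0.42 ± 0.16 (adjusted p = 0.210) and OR52M1 by 0.36 ± 0.14 (adjusted p = 0.233). OR52M1 lay under the filter level on the control array (5.04) and passed the filter through its siRNA arrays. With cyclic loess, 12 neighbours were higher and 4 lower, with medians of 0.16 and 0.15. Why neighbours stood higher was not tested.

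**Figure D3:**
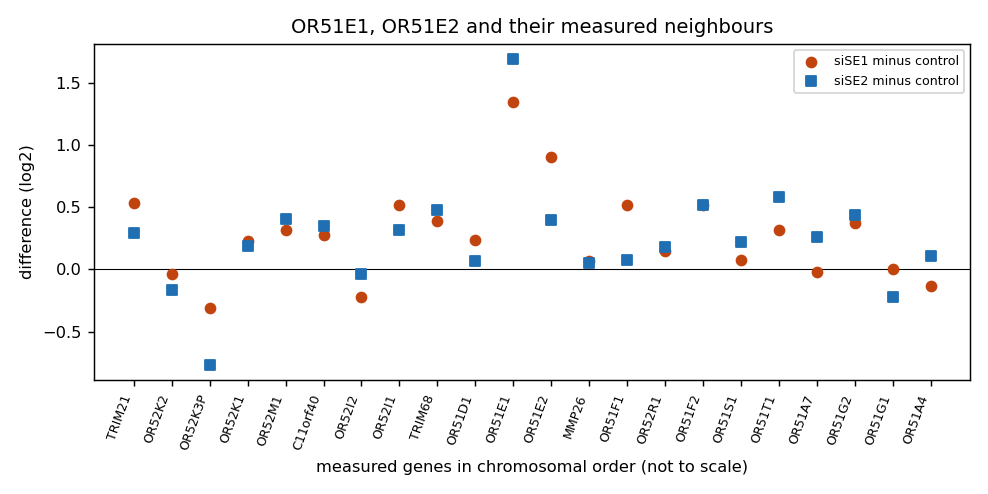
Differences from the control array (vertical axis, log2) with siSE1 (circles) and siSE2 (squares) for OR51E1, OR51E2 and the 10 nearest measured genes on each side, in chromosomal order and not to scale (horizontal axis). The points of OR51E1 stand at 1.35 and 1.69, those of OR51E2 at 0.90 and 0.40, and those of the neighbours between -0.77 and 0.58.

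The genes whose differences were most like those of the pair were found among the genes that passed the filter, by the distance between the differences with siSE1 and siSE2 on the 3 arrays. For OR51E1 the nearest was REG4, which encodes a secreted lectin of the gut, at a distance of 0.0994. REG4 read 5.49, 6.74 and 7.14 on the control, siSE1 and siSE2 arrays. CDKN1A, which encodes the CDK inhibitor p21, followed at 0.253 with 8.41, 9.71 and 9.85. TP53INP1, a p53-induced gene, came next at 0.446, then SIPA1L2 at 0.485 and SLPI, which encodes a secreted protease inhibitor, at 0.565.

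For OR51E2 the nearest was PTGES3, which encodes the HSP90 co-chaperone p23. PTGES3 lay at a distance of 0.0651 and read 9.24, 10.16 and 9.71. GASK1B followed at 0.0796, CREB3L1, a membrane-bound transcription factor gene, at 0.0825, DENND1B at 0.0880 and TRIM38, a ubiquitin ligase gene, at 0.105. Distances over 3 arrays say only that the readings were alike.

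Genes of the pathway through which olfactory receptors signal were examined next. Over all 15 lists of pathway genes, related receptors and cell type markers, 100 genes were tested and 0 were called (limma), with 12 higher and 7 lower at an unadjusted p under 0.05. Both counts are near the shares of all genes tested (0.962% and 17.8%), so they say nothing particular about these lists. Of 15 measured genes of olfactory signal transduction 9 were tested, with 0 higher and 0 lower (limma), 2 at an unadjusted p under 0.05, and a median of 0.04 against -0.02 over all genes tested. GRK3, a kinase that desensitizes receptors, read 7.12, 6.55 and 6.48 on the control, siSE1 and siSE2 arrays, a difference of -0.61 ± 0.14 (SE; limma, adjusted p = 0.0765). RIC8B, a chaperone of the olfactory G protein, differed by -0.49 ± 0.14 (limma, adjusted p = 0.126). Of 8 tested receptor export chaperones 0 passed (limma; 2 at an unadjusted p under 0.05, median 0.05). Of these 2, REEP1 lay under the filter level on the control array (4.97) and passed the filter through its siRNA arrays. REEP4 read 9.05, 8.20 and 8.56, a difference of -0.67 ± 0.17 (limma, adjusted p = 0.0962). RTP1 and RTP2, which bring olfactory receptors to the cell surface in sensory neurons, differed by 0.18 ± 0.16 and 0.10 ± 0.14.

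Downstream, 25 of 32 measured cAMP and protein kinase A genes were tested, and 0 passed (limma; 3 at an unadjusted p under 0.05, median 0.05). PRKAR1A, a regulatory subunit of protein kinase A, read 9.21, 9.78 and 9.99, a difference of 0.67 ± 0.15 (limma, adjusted p = 0.0727). With limma its adjusted p was 0.0460 with equal array medians and 0.0471 with cyclic loess. It stayed above 0.05 with quantile normalization, no filter, a filter at the 50th percentile and the other settings tried. PDE4D, a phosphodiesterase that breaks down cAMP, differed by 0.59 ± 0.14 (limma, adjusted p = 0.0869). Of 10 tested cAMP response targets 0 passed (limma; 2 at an unadjusted p under 0.05, median 0.07), and DUSP1, a phosphatase of MAP kinases, differed by 0.56 ± 0.14 (limma, adjusted p = 0.0929). Kinases and a channel reported downstream of OR51E2 gave 0 of 11 (limma; 0 at an unadjusted p under 0.05, median -0.01), with SRC at 0.25 ± 0.15 and AKT1 at -0.26 ± 0.15. Receptors for free fatty acids and metabolites, some of which share ligands with OR51E2, had 12 measured members. Of these, 2 passed the filter and 0 passed the test (limma, 0 at an unadjusted p under 0.05). FFAR2, a receptor for short-chain fatty acids, read 4.87, 5.09 and 5.23.

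Markers of the cells in which these receptors are otherwise found were given the same treatment. Of 5 tested olfactory neuron markers 0 passed (limma; 0 at an unadjusted p under 0.05, median 0.10). OMP, which marks mature sensory neurons, read 5.96, 5.98 and 6.06. Neuroendocrine markers, examined because OR51E1 is known from neuroendocrine tumours, had 10 measured members with mean readings of 4.61, 4.79 and 4.63 on the control, siSE1 and siSE2 arrays, and 0 of 3 tested passed (limma; 0 at an unadjusted p under 0.05). Among 10 tested prostate luminal markers 0 passed, with 3 higher and 2 lower at an unadjusted p under 0.05 (limma; median 0.11). That is 5 of 10, against 17.8% of all genes tested. The lists were chosen with earlier results known, so this share is a description. KLK3 differed by -0.39 ± 0.14 and SLC45A3 by -0.46 ± 0.15 (SE), while KRT8 and KRT18, luminal keratin genes, differed by 0.43 ± 0.14 and 0.42 ± 0.15. ACP3, which encodes prostatic acid phosphatase, read 6.39, 7.04 and 7.26, a difference of 0.76 ± 0.15 (SE, limma, adjusted p = 0.0569). With limma its adjusted p was 0.0319 with equal array medians and 0.0347 with cyclic loess. It was also under 0.05 with a variance prior that depends on intensity. It stayed above 0.05 with quantile normalization, no filter, a filter at the 50th percentile and the highest probe set per gene. The 6 measured blood cell markers averaged 4.70, 5.08 and 4.96, with 0 of 3 tested passing (limma; 1 at an unadjusted p under 0.05). That marker was LYZ, which encodes lysozyme and read 4.41, 6.09 and 5.11. It lay above the filter level on the siSE1 array alone and entered the test through that array, so nothing is read from this count. Of the basal and stromal markers, 0 of 3 and 0 of 6 tested passed (limma; 1 each at an unadjusted p under 0.05). The part of these markers in the OR51E1 and OR51E2 readings was not tested.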

How the data were processed

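The authors deposited 1 table of log2 values for 33297 probe sets on 3 arrays, which per the submitters' processing notes came from Affymetrix Expression Console. The algorithm and build were not given in the sources used here. The log2 scale was inferred from the range of 1.43 to 13.9 and from array medians between 5.80 and 5.84. Platform annotation named 1 gene for 19460 probe sets, of which 19429 matched RefSeq by gene identifier. Probe sets of a gene were averaged. Genes with a mean at or above the 30th percentile were tested with limma 3.58.1 in R 4.3.3 (lmFit, eBayes, Benjamini-Hochberg over 12892 genes, threshold 0.05). The fit was tested on simulated data. Precision is limited by the number of arrays.

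The members and gene lists were chosen with earlier results of these data known. Genes named are the pair, the 5 most alike for each, the 3 highest and 3 lowest other olfactory receptor genes, the nearest neighbours, and up to 3 genes per list by the smaller of their same-direction differences. ELK4, TRIM68, RTP1, KLK3, KRT18, HOXB13, OMP, TRIM21 and OR52M1 were named outside this rule, after their values were seen. Alternatives covered scaling, probe set choice, filters, fold, variance prior and leaving out each siRNA array.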

Additional observations from a re-analysis of the deposited data

How the results depend on the processing

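OR51E1 and OR51E2 kept their direction under quantile normalization, equal array medians and cyclic loess, with mean differences from 1.48 to 1.53 and from 0.58 to 0.66. Leaving out each siRNA array gave 1.35 to 1.69 for OR51E1 and 0.40 to 0.90 for OR51E2. With 1 control array these are the single-array differences given above, so this step is no further check. Each has 1 probe set, so the choice of probe set changed nothing for them.

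Counts of calls moved more. Genes at least 1.5-fold from the control with both siRNAs numbered 314, against 25 at 2-fold and 636 to 905 with 1 siRNA array. The other olfactory receptor gene that met this rule, OR4M2, was lost with the filter at the 30th or 50th percentile and at 2-fold (0 each), and 9 to 10 met it with 1 siRNA array. The limma count of 124 genes was 1 with quantile normalization or no filter, 264 with equal medians, 188 with cyclic loess and 35 when the 50th percentile was the filter; the cause was not tested. No other olfactory receptor gene was called under any of these settings or with the intensity-dependent variance prior. Calls were few over all genes too, so their absence among these genes says little. Of the list genes, 2 were called with equal medians, 3 with cyclic loess and 1 with that prior, against 0. No paired analysis was possible because the control group has 1 array. Dim signal limits OR51E2, which lay below the filter on every array.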

Other observations

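Other chemosensory receptor families were measured beside the olfactory receptors. Of 27 taste receptor genes 11 passed the signal filter, and 0 passed the test (limma; 2 at an unadjusted p under 0.05, with a median difference of 0.15 on the log2 scale). TAS2R14, a broadly tuned bitter receptor, read 6.13, 6.50 and 6.67 on the control, siSE1 and siSE2 arrays and differed by 0.46 ± 0.15 (SE, n = 2 against 1) in limma, with an adjusted p = 0.164. TAS1R2, a subunit of the sweet receptor, read 5.28, 5.84 and 5.63. TAS2R39, another bitter receptor, lay below the filter and read 3.39, 3.85 and 3.96. The 7 trace amine receptor genes and the 6 vomeronasal receptor genes all lay below the filter, and 0 of them differed by 1.5-fold with both siRNAs. TAAR8 read 3.23, 2.88 and 2.73, and VN1R1 read 3.90, 3.67 and 3.46.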
